A study of Mus musculus with 8 samples.

Results

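The regions described here are accessible chromatin at gene starts that carry a CpG island in mouse spermatogonia. ATAC-seq, in which a transposase cuts and tags open chromatin, gave 328733 peaks in 8 libraries. Merging peaks across libraries wherever they shared 1 bp or more gave 87144 regions. A region was taken as a CpG island start region where at least 1 of its peaks was annotated with a CpG island and at least 1 lay within 1000 bp of a gene start. The rule used no difference between timepoints, and 11706 regions met it (13.4%). The remaining regions were 4881 at gene starts without an island, 4074 with an island away from gene starts and 66483 with neither. As background, CpG islands are stretches of DNA that keep many CpG dinucleotides and are usually free of DNA methylation, and many lie at gene starts. They hold the promoters of nearly all housekeeping genes and of many developmental regulators, and the latter are known targets of Polycomb proteins when the gene is silent.

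All libraries came from testis germ cells of mice derived from C57BL/6 x 129s4/SvJae in the labels (C57BL/6 x SJL in the study's methods), sorted for PIWIL2-eGFP, and each library was the testes of 1 mouse. All mice, those of 0 h included, had received WIN 18,446, an inhibitor of retinoic acid (RA) synthesis, at 100 mg/kg for 7 days, which holds spermatogonia before the RA-driven step. The 2 libraries at 0 h came from mice given no RA, and those at 18, 48 and 120 h post-RA, also 2 each, from mice injected with 200 µg RA at 9 dpp, so that the later mice were also older. The study equates the timepoints with undifferentiated, type A1/A2, type A3 and type B spermatogonia. The transgene is driven by the Piwil2 promoter, which is active in germ cells from before birth to early spermatids, so the sort did not separate stages, and the start of Piwil2 itself cannot be told apart from the transgene copies. The comparisons ask how CpG island starts differ between each timepoint and 0 h.

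The libraries held 24643 to 72215 peaks, with 72215 and 69089 at 0 h and at most 39551 later. Replicate 2 at 120 h had the fewest peaks and stood apart from replicate 1 in the share of peaks at CpG island starts (40.6% against 27.8%). Of 6 germ cell marker genes, all 6 had a peak at their start in every library, with summed heights of 2447 and 3000 at 0 h and 918 to 2275 later. Without Piwil2, whose start the transgene shares, the sums were 1374 and 1991 at 0 h, 587 to 884 at 18 h and 48 h, and 1546 and 1272 at 120 h. Of 20 markers of somatic testis cells, 12 and 11 had a start peak in the 0 h libraries and 4 to 7 in the later ones, and their summed heights were 1325 and 1618 at 0 h and 244 to 562 later. A marker without a peak adds nothing to a sum, though its height is not known, so the sums also fall with the number of markers called. All 6 Sertoli markers had a peak in both 0 h libraries and 2 or 3 of them in each later library, and none of 5 Leydig markers had one in any library. Somatic marker starts thus fell off together with the number of peaks, and their part in the results below was not tested.

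To show what these starts look like, the 250 bases before the RefSeq start are given for 6 of the regions named below (build GRCm38.p6, read 5′ to 3′ on the strand of the gene, with every CG dinucleotide in capitals). Kit, Sbf2 and Uvssa are regions that rose relative to the median region, and Rap2b, Col25a1 and Chst10 are regions that fell. The 3 that rose are at chr5:75574737-75574986 (+) for Kit, chr7:110614921-110615170 (-) for Sbf2 and chr5:33378446-33378695 (+) for Uvssa. The 3 that fell are at chr3:61364257-61364506 (+) for Rap2b, chr3:130180595-130180844 (+) for Col25a1 and chr1:38898161-38898410 (-) for Chst10.
Kit: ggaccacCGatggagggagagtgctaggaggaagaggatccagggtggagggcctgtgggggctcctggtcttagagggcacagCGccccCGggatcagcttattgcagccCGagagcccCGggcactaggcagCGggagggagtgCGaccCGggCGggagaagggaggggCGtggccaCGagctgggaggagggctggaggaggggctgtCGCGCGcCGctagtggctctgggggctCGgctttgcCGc
Sbf2: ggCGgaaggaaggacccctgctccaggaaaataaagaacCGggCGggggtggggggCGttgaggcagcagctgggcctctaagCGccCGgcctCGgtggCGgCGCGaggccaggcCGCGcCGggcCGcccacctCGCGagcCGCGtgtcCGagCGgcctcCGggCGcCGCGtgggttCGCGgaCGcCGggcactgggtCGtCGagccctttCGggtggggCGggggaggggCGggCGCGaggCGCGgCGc
Uvssa: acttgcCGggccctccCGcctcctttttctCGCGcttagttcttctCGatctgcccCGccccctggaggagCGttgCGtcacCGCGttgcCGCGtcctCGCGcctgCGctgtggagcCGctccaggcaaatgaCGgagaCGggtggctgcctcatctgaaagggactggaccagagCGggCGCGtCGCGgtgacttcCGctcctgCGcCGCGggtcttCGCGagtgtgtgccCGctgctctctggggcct
Rap2b: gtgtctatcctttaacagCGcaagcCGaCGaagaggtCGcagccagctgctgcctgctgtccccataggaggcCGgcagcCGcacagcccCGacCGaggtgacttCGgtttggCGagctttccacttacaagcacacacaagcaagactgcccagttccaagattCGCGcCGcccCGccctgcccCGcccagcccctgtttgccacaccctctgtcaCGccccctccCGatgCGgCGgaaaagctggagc
Col25a1: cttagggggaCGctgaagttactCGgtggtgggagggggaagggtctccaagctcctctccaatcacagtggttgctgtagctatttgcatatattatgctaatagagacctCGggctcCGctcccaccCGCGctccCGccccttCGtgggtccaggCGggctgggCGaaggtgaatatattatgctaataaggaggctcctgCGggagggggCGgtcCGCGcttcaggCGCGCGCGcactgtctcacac
Chst10: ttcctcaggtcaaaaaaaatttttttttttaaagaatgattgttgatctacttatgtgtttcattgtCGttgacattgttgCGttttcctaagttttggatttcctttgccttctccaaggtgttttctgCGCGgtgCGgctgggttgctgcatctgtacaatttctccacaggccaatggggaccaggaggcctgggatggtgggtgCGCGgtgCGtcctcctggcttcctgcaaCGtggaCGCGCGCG
These windows held 17, 38, 30, 19, 18 and 13 CG dinucleotides in the order given, and their GC content was 70.8%, 78.0%, 68.4%, 64.4%, 60.4% and 48.8%. The median was 6 over the 32851 RefSeq promoters of this length and 17 over the 10884 genes with a CpG island start region. The lower and upper quartiles over those genes were 11 and 24, so Sbf2 and Uvssa lay above the middle range and the other 4 windows inside it, and the density over all regions is set beside the heights at 120 h below.

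Over all 11706 regions, the median width was 902 bp, the median GC content 63.2% and the median CpG observed over expected 0.761. The last is the number of CG dinucleotides relative to that given by the C and G content of the region. A start annotated by RefSeq lay inside 7974 of them, and 1079 held starts of a divergent gene pair, in which both genes are read away from a shared promoter. In 1544 regions the peak table assigned more than 1 gene to the start, and 345 regions lay on the X chromosome.

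Most CpG island starts had a called peak at all 4 timepoints, whereas most regions of the other kinds did not. A timepoint was counted only with a peak in both libraries. On that count 7954 CpG island start regions (68.0%) had a peak at all 4 timepoints, against 20.8% of gene starts without an island, 28.2% of islands away from starts and 8.15% of other regions. A peak at 0 h alone was found in 1292 (11.04%), against 36.0%, 30.0% and 39.5% in the same order. The next most frequent patterns were 0 h and 120 h with 490 regions, all but 18 h with 455 and all but 120 h with 209. Only 64 were at 120 h alone, 14 at 48 h alone and 8 at 18 h alone, and 712 had no timepoint with a peak in both libraries.

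Of the 10892 CpG island starts called at 0 h, 8499 (78.0%) were called again at 18 h, 8774 (80.6%) at 48 h and 9097 (83.5%) at 120 h. Over all 59063 regions called at 0 h this share was 39.9% at 18 h, 36.8% at 48 h and 34.3% at 120 h. With 1 library in place of both at each timepoint, the values for CpG island starts ran from 76.6% to 87.2% at 18 h, from 81.0% to 85.3% at 48 h and from 82.1% to 90.3% at 120 h. Thus the order of the 3 later timepoints was within the spread between libraries, and the gap to the other regions was not. Gene starts without an island kept 42.3%, 39.9% and 36.9%, islands away from starts 45.4%, 48.5% and 52.2%, and other regions 29.2%, 24.03% and 19.7%.

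CpG island starts were also higher to begin with, since the median summit at 0 h was 223 among those called there, against 98.5, 110 and 76.5 for starts without an island, islands away from starts and other regions. The lowest summit called in any library was 24 to 25. A region without a peak is one where none was called, so its height is not known and it was not necessarily closed. Regions were therefore also compared in 10 classes of equal size by 0 h height. In class 7, with summits of 111.2 to 142, 63.6%, 70.8% and 74.5% of CpG island starts were called at 18, 48 and 120 h. Starts without an island of that height kept 55.4%, 48.3% and 40.9%, islands away from starts 48.0%, 55.4% and 58.4%, and other regions 51.0%, 36.6% and 28.9%. In class 10 almost all regions were kept at 18 h (99.8% of CpG island starts and 99.2% of other regions), and at 120 h the shares were 99.8% and 87.6%. Thus the kinds of region differed less at like height, and within class 7 CpG island starts were still kept most often at each of the 3 timepoints. That order did not hold in every class. In class 2 CpG island starts kept 3.36% at 18 h and at 48 h, against 5.81% and 5.16% for islands away from starts. At 120 h the values there were 14.8% and 6.45%.

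**Figure D1:**
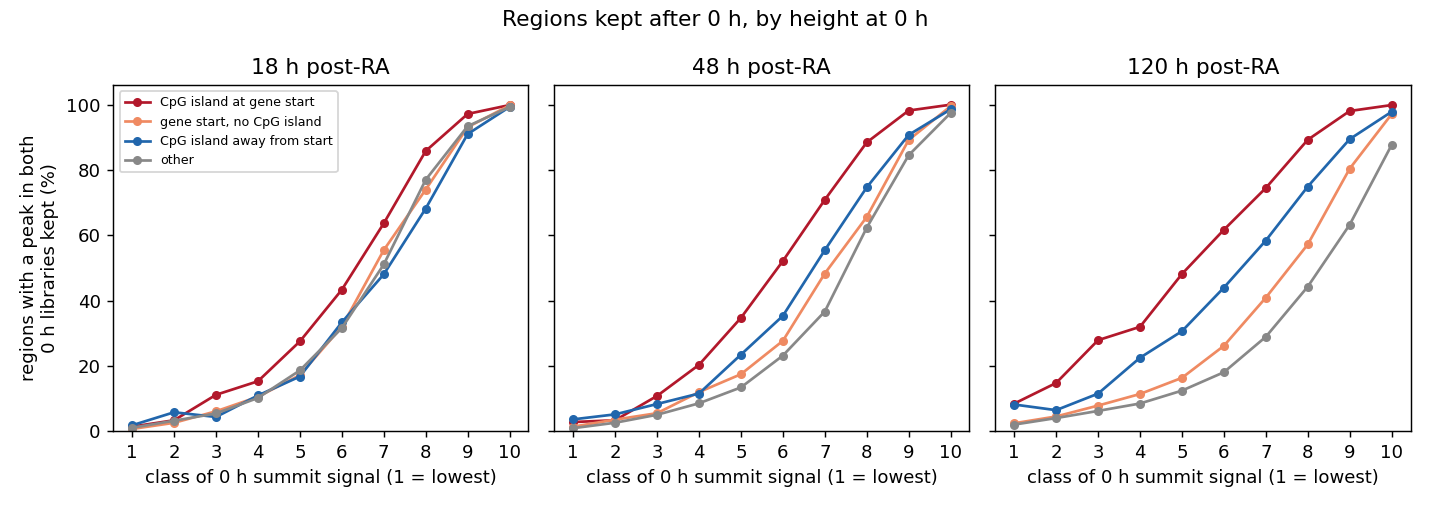
Percent of regions with a peak in both 0 h libraries that also had one in both libraries at 18, 48 and 120 h post-RA (y axis, 1 panel per timepoint), by class of summit signal at 0 h from the lowest to the highest (x axis) and kind of region. In class 7 CpG island starts lie at 63.6%, 70.8% and 74.5% and other regions at 51.0%, 36.6% and 28.9%, and the lines converge in class 10 at 18 h.

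In each library, CpG island starts made up 16.5% and 17.4% of all peaks at 0 h, 33.7% and 31.5% (18 h), 39.0% and 32.02% (48 h), and 27.8% and 40.6% (120 h). All 6 later libraries lay above both 0 h libraries (exact permutation test over libraries, two-sided, p = 0.0714, the smallest p that 2 against 6 allows). Their share of all signal in peaks was 41.4% and 45.4% at 0 h and 54.0% to 69.3% later, again without overlap (exact p = 0.0714). In absolute terms the regions did not gain peaks. A peak was present in 94.8% and 96.5% of them at 0 h and in 74.1% to 86.9% later (exact p = 0.0714), while the total number of peaks fell more. With 2 libraries against 2, no exact test of 1 timepoint can go below 0.333.

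The heights of CpG island starts were compared in the 7954 with a peak in all 8 libraries, which are 51.2% of the 15536 regions measured in this way. Height is the log2 of the top summit that each library has in the region, and summit values are tag coverage after the authors reduced all libraries to the same number of tags. A region that lost its peak in any library has no height there and was not compared, so the comparison covers the higher members. In bulk samples, fewer cells with an open region and less signal per cell cannot be told apart. With the number of tags set equal, a summit value also depends on the share of a library's tags that fall in peaks, which was not tested. The median log2 height of the 7954 was 8.01 and 8.39 (0 h), 6.72 and 7.19 (18 h), 6.79 and 6.95 (48 h), and 7.87 and 7.42 (120 h). All later libraries were lower than both 0 h libraries (exact p = 0.0714), with the 120 h libraries closest to them.

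**Figure D2:**
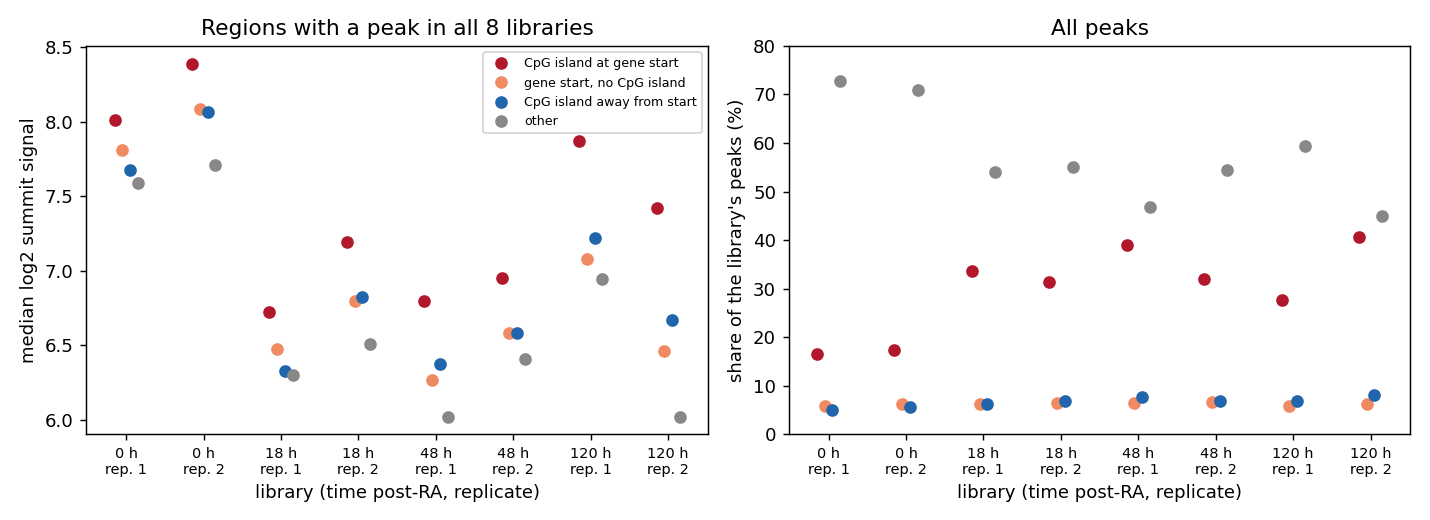
Left, median log2 summit height of regions that had a peak in all 8 libraries, and right, percent of each library's peaks, for each library (x axis) and kind of region. CpG island starts have the highest median in every library (8.01 and 8.39 at 0 h, 6.72 to 7.87 later), and their share of peaks is 16.5% and 17.4% at 0 h and 27.8% to 40.6% later.

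At 18 h and 48 h most measured regions fell, whatever their kind, where only those that kept a peak throughout were measured. Without further scaling, 7654 of the 7954 CpG island starts (96.2%) were lower at 18 h than at 0 h and 7702 (96.8%) at 48 h (limma, Benjamini-Hochberg adjusted over all 15536 regions, threshold 0.05), against a background of 92.3% and 93.3% of all regions. None was higher at either time, where the background was 0.296% and 0.328%, and the count at an unadjusted limma p under 0.05 was also 0. The median log2 change was -1.22 and -1.31. At 120 h, 2211 (27.8%) were lower, against 44.8% of all regions and 62.6% of those that were not CpG island starts, and 5 were higher, against 0.882%. The median log2 change at 120 h was -0.53, compared with -1.08 for starts without an island, -0.85 for islands away from starts and -1.14 for other regions. These counts rest on few libraries. The median standard error of this fit was 0.37 in every kind of region, and a shift shared by a whole library enters all its regions. At 18 h and 48 h the counts thus largely repeat the same shift between libraries over many regions. For such a shift the exact test of 2 against 2 libraries cannot go below 0.333. The count lower at 18 h was 3180 without replicate 1 at 18 h and 3981 without replicate 2 at 0 h, and the count lower at 120 h was 746 without replicate 2 at 0 h, 960 without replicate 2 at 120 h and 3432 without replicate 1 at 120 h.

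Since the median of all measured regions fell by 1.23, 1.36 and 0.75 on the log2 scale, changes are given from here on relative to the median region, that is after each library was centred on its median over the 15536. A region called higher on this scale can thus have kept or lost signal while the others lost more, and since CpG island starts are about as many as the rest, they weigh on the median themselves. At 18 h, 3 CpG island starts were lower and 10 higher, with a background of 0.225% and 1.25% of all regions. At 48 h, 29 were lower and 86 higher (1.08%), with a background of 1.51% and 3.26%. All 4 counts are smaller shares of the members than the background. At 18 h the counts ran from 0 to 4 lower and from 1 to 20 higher with 1 library left out, and both were smallest without replicate 1 at 18 h. At 48 h they ran from 0 to 28 and from 3 to 104, and both were smallest without replicate 1 at 48 h.

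At 120 h the CpG island starts parted from the other measured regions. 2541 of 7954 (31.9%) were higher relative to the median region, against 23.0% of all regions, 11.6% of starts without an island, 15.2% of islands away from starts and 13.6% of other regions. 468 (5.88%) were lower, against 15.8% of all regions, 28.2% of starts without an island, 13.8% of islands away from starts and 28.4% of other regions. The median relative log2 change was 0.36 with quartiles of -0.01 and 0.66, and 74.6% of members lay above 0, against medians of -0.19, 0.04 and -0.25 for the other 3 kinds. In each library, the median log2 height of CpG island starts minus that of all other regions was 0.38 and 0.58 (0 h), 0.40 and 0.62 (18 h), 0.69 and 0.51 (48 h), and 0.88 and 1.29 (120 h). Both 120 h libraries were above all others, while over all 6 later libraries the difference from 0 h had an exact p of 0.286. The direction held in each alternative run for the median, but the counts did not. 1107 were higher without replicate 1 at 0 h and 655 without replicate 2 at 120 h, and the counts lower and higher were 315 and 692 with quantile normalization and 926 and 1571 once a trend of height on GC content was removed in each library. Without those libraries the count lower was 290 and 249, and it was 301 without replicate 2 at 0 h.

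**Figure D3:**
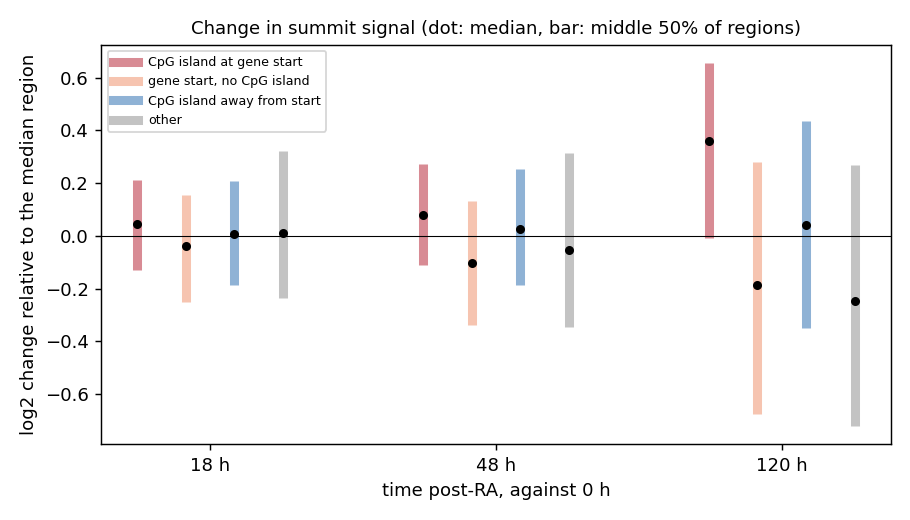
Change of log2 summit height against 0 h relative to the median region (y axis), at 18, 48 and 120 h post-RA, by kind of region, over regions with a peak in all 8 libraries. Thick bars run from the lower to the upper quartile around the median point, and CpG island starts reach a median of 0.36 at 120 h, while starts without an island are at -0.19 and other regions at -0.25.

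Kit, the receptor of stem cell factor that marks differentiating spermatogonia, rose relative to the median region at all 3 timepoints and kept that call under all 6 alternatives and with each of the 8 libraries left out. Its start region (chr5:75574591-75575349, summit 11 bp before the start) had summit values of 96 and 144 (0 h), 107 and 150 (18 h), 127 and 142 (48 h), and 250 and 159 (120 h). Its signal was thus in or near the range of 0 h at 18 h and 48 h, when nearly every other start was lower, and both 120 h libraries exceeded both 0 h libraries. The relative log2 change was 1.37 ± 0.20 (SE) at 18 h, 1.58 ± 0.20 at 48 h and 1.65 ± 0.20 at 120 h (limma adjusted p = 0.00264, 0.000525 and 0.000148). Without further scaling the changes were 0.11, 0.19 and 0.76, none of which passed the threshold (limma adjusted p = 0.776, 0.612 and 0.0798).

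The other largest rises at 18 h were of low starts that stayed low. Dlgap3, which encodes a postsynaptic scaffold protein, had summits of 54 and 56 (0 h), 48 and 48 (18 h), 42 and 42 (48 h), and 59 and 57 (120 h). Prr18 ran from 36 to 72 over the 8 libraries with 44 and 72 at 0 h, and the region shared by Cep76, which encodes a centrosomal protein, and Psmg2 from 64 to 132 with 132 and 93 at 0 h. Their relative log2 changes at 18 h were 1.06, 1.16 and 1.15 (limma adjusted p = 0.0438, 0.0123 and 0.0368), and all 3 lost the call with quantile normalization. LOC101055644, on the Y chromosome, where near-identical copies make the placement of reads uncertain, had 36 and 47 at 0 h and 92 and 74 at 120 h, with relative changes of 1.39, 1.58 and 1.89. At 48 h Brpf3, a scaffold of histone acetyltransferase complexes, had 61 and 74 (0 h) and 77 and 65 (48 h), a relative log2 change of 1.47 ± 0.23, limma adjusted p = 0.00274, and Trank1 had 52 and 79 against 71 and 63 (1.45 ± 0.23, limma adjusted p = 0.00268). 6030426L16Rik, with 59 to 91 in all libraries, was the next (1.32 ± 0.31, limma adjusted p = 0.0301). Without further scaling none of these 7 starts was called at 18 h or 48 h, so what was measured is that they did not fall with the rest.

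Starts called lower relative to the median region at 18 h were 3 in all, while 43.3% of the 7954 lay below 0 on this scale. Galnt9, which encodes an enzyme that begins O-linked glycosylation, went from 265 and 238 (0 h) to 43 and 58 (18 h) and was at 52 and 62 (48 h) and 93 and 41 (120 h). Its relative log2 change at 18 h was -1.07 ± 0.23 (limma adjusted p = 0.0351). Tll2, a tolloid-family metalloprotease, went from 277 and 365 to 62 and 74 (-0.97 ± 0.22, limma adjusted p = 0.0446). All 3 lost the call when the mean signal of the peak replaced the summit.

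The 5 largest falls at 48 h were at BC018507, Rap2b, Gas1, Egr4 and Crh. Rap2b, which encodes a small GTPase of the Ras family, had summits of 770 and 771 (0 h), 157 and 252 (18 h), 118 and 142 (48 h), and 379 and 219 (120 h). It was lowest at 48 h and recovered in part (relative log2 change -1.18 ± 0.21 at 48 h, limma adjusted p = 0.00573, and -0.53 ± 0.21 at 120 h, limma adjusted p = 0.0581). Gas1, a membrane protein that binds Hedgehog ligands, went from 358 and 355 to 67 and 57 at 48 h and 136 and 56 at 120 h. Egr4, a transcription factor needed for male fertility, went from 480 and 357 through 128 and 171 at 18 h to 73 and 86 at 48 h (-0.99 ± 0.23, limma adjusted p = 0.0284). Crh, which encodes corticotropin-releasing hormone, went from 190 and 222 to 36 and 44, and BC018507 from 529 and 603 to 75 and 117. The 0 h libraries of all 5 lay above every later library.

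The 5 largest falls at 120 h were at Gpr98, H2-Q7, Col25a1, Chst10 and Amer1. Gpr98, an adhesion G protein-coupled receptor, had 656 and 736 (0 h), 270 and 354 (18 h), 179 and 286 (48 h), and 152 and 63 (120 h), a relative log2 change of -1.94 ± 0.24, limma adjusted p = 0.000162. Its relative change was 0.09 at 18 h and -0.23 at 48 h, neither past the threshold, so its fall beyond the median was measured only at 120 h. Col25a1, a transmembrane collagen, had 335 and 359 (0 h), 81 and 97 (18 h), 72 and 77 (48 h), and 67 and 47 (120 h), a relative log2 change of -1.74 ± 0.20, limma adjusted p = 8.69e-05. It had most of its fall by 18 h and did not regain height when the median region did. Chst10, which encodes a sulfotransferase, went from 282 and 281 to 61 and 38 (-1.66 ± 0.24, limma adjusted p = 0.000444). Amer1, an X-linked gene of the Wnt pathway, went from 248 and 241 to 57 and 33 (-1.60 ± 0.21, limma adjusted p = 0.000238). H2-Q7, of the major histocompatibility class I family, went from 428 and 598 to 98 and 56 (-1.88 ± 0.23, limma adjusted p = 0.000135), which is uncertain because the family has near-identical copies.

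The largest rises at 120 h were above both 0 h libraries also before centring. Sbf2, a member of the myotubularin family, had 191 and 206 (0 h), 89 and 99 (18 h), 124 and 121 (48 h), and 443 and 355 (120 h), a relative log2 change of 1.89 ± 0.21, limma adjusted p = 8.38e-05, and 1.00 without further scaling, limma adjusted p = 0.0191. Uvssa, which acts in transcription-coupled DNA repair, had 179 and 248 (0 h), 115 and 127 (18 h), 147 and 128 (48 h), and 466 and 350 (120 h), a relative log2 change of 1.83 ± 0.22, limma adjusted p = 0.000135. D17Wsu104e had 100 and 114 at 0 h and 209 and 210 at 120 h (1.86 ± 0.24, limma adjusted p = 0.000196). The start shared by Skiv2l2, an RNA helicase of the exosome pathway, and Dhx29 had 196 and 190 against 432 and 289 (1.76 ± 0.26, limma adjusted p = 0.000493). These 4 regions and LOC101055644 are also the 5 that were higher at 120 h without further scaling. All 5 rises and all 5 falls named at 120 h kept their call under each alternative and each left-out library.

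**Figure D4:**
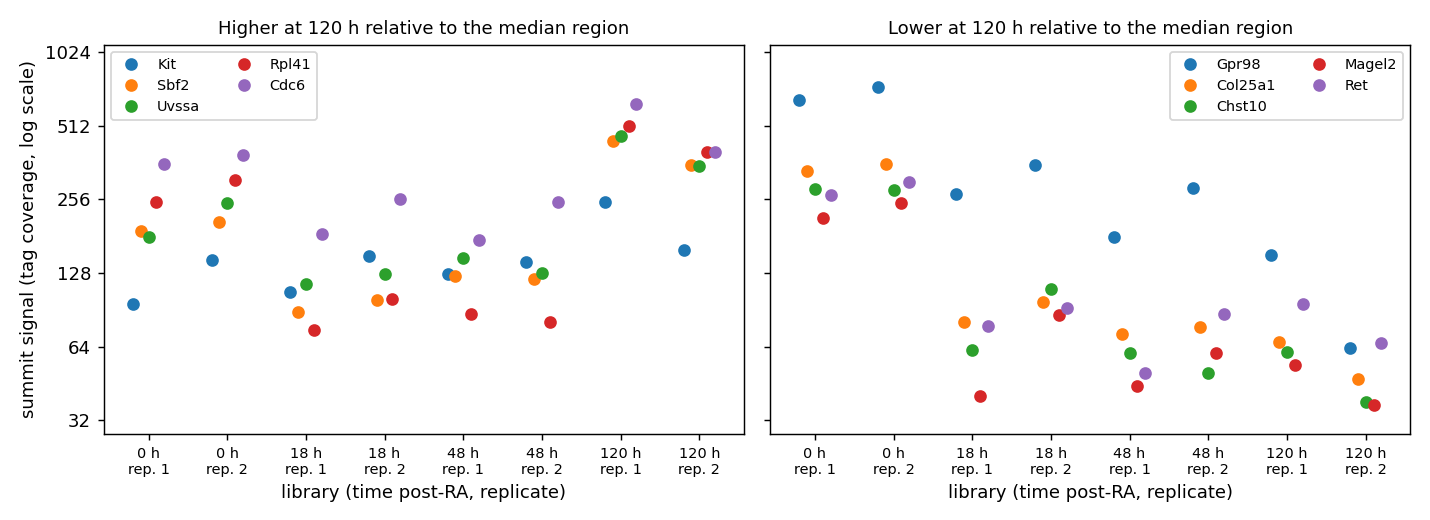
Summit value in each library on a log axis (y axis) for 5 named CpG island start regions that rose (left) and 5 that fell (right) relative to the median region at 120 h, with the libraries ordered by timepoint along the x axis. Each point is 1 region in 1 library, and Sbf2 is at 191 and 206 at 0 h and 443 and 355 at 120 h, while Col25a1 falls from 335 and 359 to 67 and 47.

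The highest starts of all were at Rab40c, Map3k3, Dnpep, Samd4b (shared with Gmfg) and Khsrp. Rab40c, which encodes a Rab-related GTPase, had summits of 1634 and 1888 (0 h), 707 and 923 (18 h), 543 and 661 (48 h), and 1759 and 1372 (120 h). At 120 h replicate 1 lay between the 0 h libraries and replicate 2 below both. The 5 regions had relative log2 changes of 0.69 to 0.85 at 120 h (limma adjusted p from 0.00692 to 0.0187), and all 5 lost the call with quantile normalization and all but Khsrp after removal of the GC trend.

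Groups of genes were then followed by role, and counts below are of regions with a peak in all 8 libraries and changes at 120 h relative to the median region, read against 31.9% higher, 5.88% lower and a median of 0.36 over all measured CpG island starts (23.0% higher and 15.8% lower among all regions). A single CpG island start region was taken per gene, by preference one that lies nearest to that gene. Other start regions of the same gene are thus not in these counts. At 18 h and 48 h nearly no listed start passed the threshold. Kit was the only one at 18 h. At 48 h Egr4 was lower, and Kit, Smc1b, Mrpl10, Ndufaf3 and Rbl1 were higher over all 15 lists, and these are named, after their values were seen, because they are so few.

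Of genes known from undifferentiated spermatogonia, 13 of 21 regions were measured, of which 2 were lower and 1 higher, with a median of 0.10. Ret, the receptor subunit for GDNF, the factor that sustains spermatogonial stem cells, had 267 and 302 (0 h), 78 and 92 (18 h), 50 and 87 (48 h), and 96 and 66 (120 h), a relative log2 change of -0.94 ± 0.22, limma adjusted p = 0.00602. Egr4 was the other that fell, with -0.88 at 120 h. Sall1, a zinc finger factor, had 114 and 125 at 0 h and 99 and 100 at 120 h (0.63 ± 0.23, limma adjusted p = 0.0472), a call lost in 5 of 6 alternatives. Cdh1, the E-cadherin gene, had a peak in every library but replicate 2 at 120 h.

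Of the RA response and differentiation list, 8 of 17 regions were measured, of which 4 were higher and 1 lower, with a median of 0.29. Kit, Dmrt1 (0.96), a factor of the male germline, Rxrb (1.12), a retinoid X receptor, and Stra13 (0.57) rose relative to the median region. Rarb, the RA receptor beta gene and a classical RA target, had 138 and 205 (0 h), 71 and 101 (18 h), 70 and 59 (48 h), and 56 and 41 (120 h), a relative log2 change of -0.92 ± 0.22, limma adjusted p = 0.00747. Its relative change was 0.27 at 18 h and 0.0047 at 48 h, neither past the threshold, and the 120 h call was lost with quantile normalization (limma adjusted p = 0.0731). Aldh1a3, an RA-synthesising enzyme, lost its peak at 48 h and had 42 and 39 (120 h) against 87 and 107 (0 h).

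Among germ cell identity and piRNA genes, 6 of 23 were higher and 1 lower, with a median of 0.39. The start shared by Rad51c and Tex14, the latter required for the bridges between germ cells, had 221 and 293 (0 h), 113 and 120 (18 h), 117 and 127 (48 h), and 363 and 234 (120 h), a relative log2 change of 1.09 ± 0.20, limma adjusted p = 0.00172. Dazl, an RNA-binding protein of germ cells (0.97), and Mael (0.75), of the piRNA pathway, rose too, as did Mov10l1, Nanos1 and Tdrd7. The start shared by Ddx25 and Pus3 fell, from 176 and 241 to 85 and 55 (-0.70 ± 0.22, limma adjusted p = 0.022). Tdrd1, a Tudor protein of the piRNA pathway, had 148 and 231 at 0 h and a later peak only in replicate 1 at 48 h (66).

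In the meiotic prophase list, 6 of 21 were higher and none lower, with a median of 0.25. These were Smc1b (0.90), Stag3 (0.78) and Sycp3, parts of the meiotic chromosome axis, and Msh5 (0.85), Psmc3ip and Tex11, which act in recombination. The region of Stag3 is shared with Gpc2, whose start is the nearer. The start shared by Smc1b and Ribc2 had 87 and 83 (0 h), 46 and 58 (18 h), 72 and 57 (48 h), and 90 and 81 (120 h), so its signal returned to the level of 0 h. Spo11, which makes the meiotic DNA breaks, had 80 and 125 (0 h), no peak at 18 h, 52 and 61 (48 h), and 85 and 74 (120 h). Mei1, needed for these breaks, had a peak in 1 of the 0 h libraries and in 5 of 6 later ones.

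Developmental transcription factors, the class whose islands Polycomb is known to hold, were followed at 70 CpG island start regions, a single one per gene. Of these, 56 were called at 0 h and 30, 26 and 34 at the 3 later times. Of all 11706 CpG island starts, 93.0% were called at 0 h and 72.7%, 75.2% and 78.4% at the later times. 18 of the 70 were called at 0 h alone, against 11.04% of all CpG island starts. 20 had a peak in all libraries, against 68.0%, with 4 lower, 2 higher and a median of -0.13. All 18 called at 0 h alone had summits there below 223, the median of CpG island starts called at 0 h. Among them, Hoxb9 had 52 and 50 and Six2 130 and 186. Of all CpG island starts with 0 h summits of 62.87 to 74.83, 15.3%, 20.32% and 31.96% were called at the later times. The 70 regions were not compared at like height, so these shares do not set developmental factors apart from other low starts. Olig1, a factor of oligodendrocytes, had 216 and 293 (0 h), 78 and 105 (18 h), 56 and 91 (48 h), and 84 and 38 (120 h), a relative log2 change of -1.26 ± 0.23, limma adjusted p = 0.00172. Six6 (-1.03), an eye factor, and Msx1 (-0.91) fell as well. Lhx2, with 383 and 418 at 0 h and 523 and 271 at 120 h (0.80 ± 0.22, limma adjusted p = 0.0139), and Otx1 (0.78) rose relative to the median region.

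Starts of cytosolic ribosomal proteins had the highest median of the 15 lists. Of 70 cytosolic ribosomal protein starts, 43 were higher and none lower at 120 h, with a median of 0.69. Rpl41 had 251 and 307 (0 h), 75 and 100 (18 h), 87 and 81 (48 h), and 511 and 399 (120 h), a relative log2 change of 1.59 ± 0.21, limma adjusted p = 0.00024, and Rps27 had a relative change of 1.58. The smallest change was at X-linked Rps4x, with 157 and 121 at 0 h and 75 and 38 at 120 h (-0.48 ± 0.25, limma adjusted p = 0.141). The count of 43 became 38 after removal of the GC trend, and 14 with quantile normalization and 14 without replicate 2 at 120 h.

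Of 62 mitochondrial ribosomal protein starts 16 were higher and 1 lower (median 0.36), with Mrpl45 at 203 and 218 at 0 h and 277 and 223 at 120 h (1.13 ± 0.23, limma adjusted p = 0.00281). Of 73 oxidative phosphorylation starts 28 were higher and 1 lower (median 0.42). Ndufaf3, an assembly factor of complex I, had 125 and 232 (0 h), 100 and 125 (18 h), 107 and 130 (48 h), and 298 and 221 (120 h), a relative log2 change of 1.48 ± 0.23, limma adjusted p = 0.000658, while the start shared by X-linked Ndufb11, a complex I subunit, and Rbm10 fell from 243 and 252 to 90 and 44 (-1.08 ± 0.22, limma adjusted p = 0.00314). Of 31 proteasome starts 15 were higher and none lower (median 0.50), led by Psmd3 with 175 and 195 at 0 h and 266 and 237 at 120 h (1.33 ± 0.22, limma adjusted p = 0.000896). The start shared by Psmb9, an immunoproteasome subunit, and Tap1 was the lowest of them (317 and 479 against 226 and 95, -0.52 ± 0.23, limma adjusted p = 0.092). Without replicate 2 at 120 h the counts higher were 4, 5 and 4 for the 3 lists, and with quantile normalization 4, 7 and 5.

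Of 40 cell cycle and replication starts 22 were higher and none lower, with a median of 0.59. Cdc6, which loads the replicative helicase, had 359 and 390 (0 h), 185 and 257 (18 h), 174 and 249 (48 h), and 628 and 400 (120 h), a relative log2 change of 1.31 ± 0.20, limma adjusted p = 0.00062. Plk1, a mitotic kinase, had the smallest change, with 316 and 291 at 0 h and 148 and 120 at 120 h (-0.30 ± 0.24, limma adjusted p = 0.34). Ccnd1, the cyclin D1 gene, lacked a peak in 1 library at 18 h and 1 at 48 h and had 157 and 177 (0 h) and 191 and 143 (120 h). The count of 22 was 9 with quantile normalization and 11 without replicate 2 at 120 h.

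Chromatin regulators followed. Of 29 Polycomb and Trithorax starts, 15 were higher and 1 lower (median 0.58), and 5 were higher with quantile normalization and 6 without replicate 2 at 120 h. Cxxc1, which binds unmethylated CpG and is part of a histone H3K4 methyltransferase complex, had 186 and 236 (0 h), 114 and 116 (18 h), 89 and 127 (48 h), and 353 and 270 (120 h), a relative log2 change of 1.45 ± 0.21, limma adjusted p = 0.000492. Cbx7, a Polycomb reader of H3K27 methylation, had 225 and 266 at 0 h and 109 and 63 at 120 h (-0.67 ± 0.19, limma adjusted p = 0.0155). Of 6 DNA methylation starts, 4 were higher and none lower (median 0.67), with Mbd2, a reader of methylated CpG, at 322 and 498 at 0 h and 479 and 361 at 120 h (0.94 ± 0.22, limma adjusted p = 0.00592). The start shared by Dnmt3b, a de novo DNA methyltransferase, and 7530422B04Rik was not called (0.19 ± 0.22, limma adjusted p = 0.515).

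Among early response and stress genes, 9 of 23 starts were higher and 1 lower (median 0.43). Fosl2, of the AP-1 family, had 319 and 304 at 0 h and 388 and 335 at 120 h (1.10 ± 0.22, limma adjusted p = 0.00305), and Nr4a1, an orphan nuclear receptor, had 177 and 274 against 76 and 56 (-0.86 ± 0.26, limma adjusted p = 0.0198). Of imprinted genes, 13 of 20 regions were measured, 3 higher and 1 lower, with a median of 0.00. Magel2, paternally expressed, had 214 and 248 (0 h), 40 and 86 (18 h), 44 and 60 (48 h), and 54 and 37 (120 h), a relative log2 change of -1.48 ± 0.24, limma adjusted p = 0.000931, while the start shared by Peg10 and Sgce, also paternally expressed, had 103 and 195 (0 h) and 187 and 162 (120 h), a relative log2 change of 1.19 ± 0.24, limma adjusted p = 0.00323. Of 11 regions at testis somatic cell genes, all 11 were called at 0 h and 3, 4 and 4 at the later times, to be set beside the shares of all CpG island starts given with the developmental factors. These counts take a single region per gene. The Wt1 region was called at 0 h alone, but over all its start regions Wt1 had a peak in all 8 libraries. Gata4 likewise had 48 and 74 at 18 h, where its listed region had a peak only in replicate 2. The 11 regions too were not compared at like height. The 2 measured were both lower, among them Kdr, an endothelial receptor, with 109 and 192 (0 h) against 40 and 38 (120 h) and a relative log2 change of -1.0, and somatic marker starts as a whole, given above, were also lower later.

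**Figure D5:**
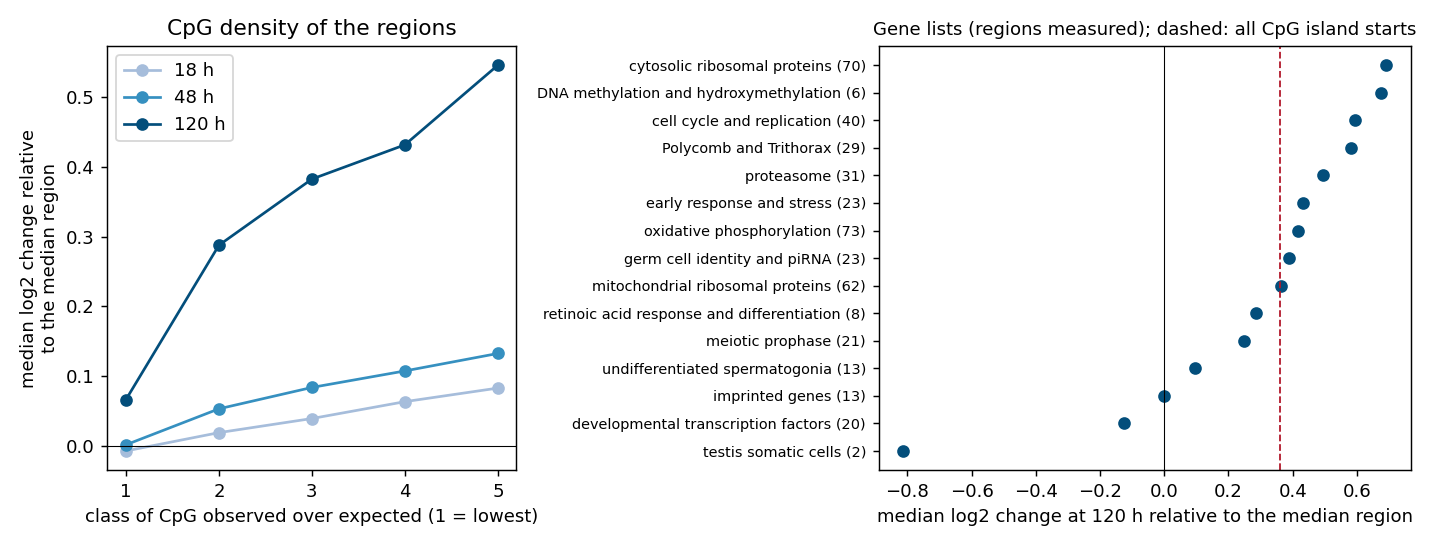
Left, median log2 change against 0 h relative to the median region (y axis) by class of CpG observed over expected (x axis) at 18, 48 and 120 h. Right, median of the same change at 120 h for each gene list (number of measured regions in brackets), with a dashed line at the median of all measured CpG island starts (0.36), where cytosolic ribosomal proteins lie highest (0.69) and testis somatic cell genes (2 regions) lowest.

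CpG island starts called at 0 h alone were low. Their median summit at 0 h was 71 and 81 in the 2 libraries, against 258 and 335 for those called at all 4 timepoints, and of the 1292, 430 had no peak in any later library, 404 had one in 1, 301 in 2 and 157 in 3. The count was 211 when only as many of the highest peaks were taken from each library as the smallest library had, so it depends on the number of peaks per library, and it was 788 without replicate 2 at 120 h. Of the 430, 192 (44.7%) had another region within 1000 bp with a peak in a later library. The highest of the 430 was a region 848 bp before a start of Ptch1, the Hedgehog receptor, with 214 and 328. Next were regions at Gm19412 and Tapbp, which loads peptides on class I molecules (161 and 230), Ntn3, a netrin (159 and 184), Mir688 and Atp5g2 (149 and 154), and Gm8327 and Nr2f1, a nuclear receptor (147 and 160). The regions at Ptch1 and at Gm19412 each had such a neighbour with a peak in 1 later library, and the others named had none. The study reports some accessibility of Ptch1 at every timepoint.

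Conversely, 23 regions had a peak in both 120 h libraries and in no other, but 20 of them had another region within 1000 bp with a peak elsewhere. Mrps5, of the mitochondrial ribosome (283 and 174), Banp (214 and 168), Ccdc117 (160 and 123) and March3, a ubiquitin ligase (147 and 95), each had such a neighbour in all 6 other libraries, so accessible chromatin was called near those starts there too. Pcgf2, a subunit of Polycomb repressive complex 1, was the exception among the 5 highest, with 145 and 113 at 689 bp after a start and no neighbour in the other libraries. The count of 64 called at 120 h alone was 37 without replicate 1 at 0 h, 133 and 166 without either 120 h library, and 312 with equal numbers of peaks.

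Peaks at CpG island starts, taken as the highest peak of each library in a region, were widest at 0 h. Over the 7954 regions the median width was 880 and 855 bp at 0 h, 528 and 683 (18 h), 631 and 648 (48 h), and 714 and 680 (120 h), with an exact p = 0.0714. All later libraries were narrower. CpG island starts with several peaks in a library were 6.75% and 5.95% at 0 h and 6.55% to 13.0% later, and heights fell as well. Whether width changed apart from these was not tested. Summits within 100 bp of the start were 53.3% and 56.2% at 0 h, 52.4% and 54.7% (18 h), 53.3% and 53.1% (48 h), and 57.8% and 58.4% (120 h). Both 120 h libraries were thus above the other 6 (exact p = 0.333 against 0 h, the smallest that 2 against 2 allows), while all 6 later libraries differed from 0 h by a mean of 0.197 percentage points (exact p = 1). The sign of that mean difference turned when replicate 1 at 0 h or either 120 h library was left out.

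The change at 120 h differed with sequence among the CpG island starts themselves. Over 5 classes of equal size, from the lowest to the highest CpG observed over expected, the median relative log2 change was 0.07, 0.29, 0.38, 0.43 and 0.55. Starts called higher numbered 281, 444, 507, 565 and 744 of about 1591 in each, and starts called lower 223, 91, 85, 44 and 25. GC content gave a smaller range, from 0.28 to 0.44, and region width one from 0.31 to 0.40. Height gave a range like that of CpG density. By 5 classes of the mean height at 18 h and 48 h, which enter neither side of the 120 h contrast, the medians were 0.00, 0.22, 0.35, 0.46 and 0.58. Within the lowest class of height the median rose from -0.16 through -0.03 to 0.21 over the 3 classes of CpG density, and within the highest from 0.48 through 0.59 to 0.64. These are descriptions across regions, which share their libraries.

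CpG island starts also stood above the other kinds of region at like GC content and like height. At a GC content of 56.2% to 60.7% their median relative log2 change at 120 h was 0.29, against -0.20 for starts without an island, -0.05 for islands away from starts and -0.32 for other regions. In the lowest of 5 classes of height it was -0.05, against -0.34, -0.14 and -0.20, and in the highest 0.55, against 0.25, 0.41 and -0.02. In the highest GC class the 28 starts without an island had 0.48 and the CpG island starts 0.43, so the order did not hold there.

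The 994 measured regions with divergent starts were higher than those with other RefSeq starts, with a median log2 height of 7.75 against 7.42 and a difference between 0.30 and 0.44 in every library. That difference overlapped between 0 h and later libraries (exact p = 0.214). At 120 h 38.8% of divergent starts were called higher, against 32.3% of the others. The 192 starts on the X chromosome were lower than the autosomal ones, with a difference in median log2 height of -0.78 to -0.51 in the 8 libraries. The mean difference was -0.53 ± 0.02 (SD, n = 2) at 0 h and -0.67 ± 0.09 (SD, n = 6) later, without overlap (exact p = 0.0714). As background, male cells carry a single X. Among autosomes the median relative change at 120 h ran from 0.18 on chromosome 13 to 0.57 on chromosome 11.

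Short motifs were counted on both strands in windows of 301 bp around the summits, and shares of all RefSeq promoters are given beside them. The promoters are the 250 bases before the start, so they are shorter and placed differently, and their shares are only a rough comparison. The letters GGGCGG, the GC box of SP and KLF factors, were in 76.6% of the 7954 measured CpG island starts, in 29.6% of the other measured regions and in 35.7% of all promoters. CCGGAAG, the core of ETS sites, was in 21.7%, 6.85% and 8.86%, and TGACGTCA, the cyclic AMP response element, in 4.39%, 1.24% and 1.79%. CCAAT, the NFY motif, differed less (39.4%, 37.6% and 37.4%), and TATAAA was rarer in CpG island starts (3.03%, 7.10% and 13.6%). CACGTG, an E-box, was in 12.1%, 6.78% and 7.15%. AGGTCA, the repeat unit of RA receptor sites, was in 9.20%, 15.3% and 16.3%, and CNCCTCAG, the letters reported for STRA8, in 9.63%, 8.28% and 7.94%.

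AAGATGGCG, the YY1 motif, was in 4.34% of measured CpG island starts, 1.48% of other measured regions and 1.40% of all promoters. It was in 8.19% of those called higher at 120 h and in none of the 468 called lower, and the 345 starts with it had a median relative log2 change of 0.69, against 0.35 for those without. TTCCCGCC, an E2F motif, was in 5.23%, 1.57% and 2.19%, and the medians with and without it were 0.53 and 0.35. GCGCATGCG, the NRF1 motif, was in 4.19%, 1.52% and 1.75%, with medians of 0.46 and 0.35 at 120 h and of 0.17 and 0.04 at 18 h. For GGGCGG the medians at 120 h were 0.39 and 0.26. GTTGCCAT (RFX) and AACTGTC (MYB) were in 1.21% and 1.76%, with medians of 0.36 and 0.45. CG-rich motifs overlap with CpG density and some may share letters with each other, and a match describes letters in the window, not binding.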

How the data were processed

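Peaks came from ATAC-seq of sorted PIWIL2-eGFP germ cells, 2 libraries at 0 h and 2 each at 18, 48 and 120 h after RA. The labels and the study's methods differ in the number of cells per library and in the strain. Per the study's methods and processing notes, reads were demultiplexed with bcl2fastq 2.20 and aligned to mm10 with BWA 0.7.12, handled with SAMtools 0.0.19 and bedtools 2.25.0, reduced to the same number of tags per library, extended, and peaks were called with MACS2 2.1.0 per library without control. Blacklisted peaks were removed and genes within 10 kb assigned. The authors deposited for each peak the signal (tag coverage) at the summit and its mean, together with CpG island counts and distances to starts. The depth behind a value is known only as this signal.

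Peaks were merged in Python 3.11.15 (numpy 2.4.6, pandas 2.3.3, scipy 1.17.1, matplotlib 3.10.9), and merging and fits were tested on simulated data. Heights were fitted with limma 3.58.1 in R 4.3.3 (4 groups, no block, Benjamini-Hochberg over 15536 regions, threshold 0.05), without further scaling and centred on library medians. Library values were compared by exact two-sided permutation, the smaller tail doubled. Replicates are single mice. GC content and sequences are from GRCm38.p6 and RefSeq, and the chromosome lengths fit the peak coordinates. Named are the 5 largest rises and falls per timepoint without overlap between libraries, the 5 highest regions with a peak at 0 h or at 120 h only, the 5 highest in mean height, and from each of 15 gene lists the largest and smallest change at 120 h and up to 2 without a peak in all libraries. Other list members are named where called. A few regions that this rule selects are not reported here. The members, lists and tests were chosen with earlier results of these data known. Alternatives were mean signal, quantile normalization, removal of a GC trend, a variance trend, only the libraries compared, other region rules and each library left out.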

Additional observations from a re-analysis of the deposited data

How the results depend on the processing

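The median change of CpG island starts at 120 h relative to the median region, and its excess over other regions, stayed above 0 in every alternative run, and the counts were less stable. The shares kept at 18, 48 and 120 h were 70.4%, 73.1% and 76.9% with summits of at least 50, 92.3%, 93.8% and 93.7% with equal numbers of peaks, and 86.0%, 86.0% and 89.0% with a peak in either library. At 48 h it was 78.5% with a 3000 bp limit for a start and 83.2% with 500 bp. With 1 library left out, the ranges were 75.4% to 88.8%, 77.9% to 86.9% and 80.9% to 91.7%. The number at 0 h only was 1952, 211 and 837 in the same 3 settings, and 788 to 1638 with 1 library left out. The number at 120 h only was 312 with equal numbers, 35 with 500 bp, 98 with either library, and 37 to 166 with 1 left out.

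Without further scaling, leaving out 1 library gave 3180 to 7822 lower at 18 h, 746 to 3432 lower at 120 h and 0 to 8 higher at 120 h, and the pairwise fit gave 2 higher. Median centring and quantile normalization replaced these counts by 3 and 2 lower and 10 and 3 higher at 18 h, 29 and 43 lower and 86 and 56 higher at 48 h, and 468 and 315 lower and 2541 and 692 higher at 120 h. The median change at 48 h was -1.03 with mean signal.

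Relative to the median region, the counts lower at 18 h were 10 with mean signal, 6 with a variance trend and 10 with the GC trend removed, and the counts higher 36, 20 and 17, and 3 with quantile normalization. At 48 h the counts lower were 58, 51 and 68, and 19 with only the libraries compared, and the counts higher 136 with mean signal and 56 with quantile normalization. At 120 h 926 were lower and 1571 higher with the GC trend removed, and 692 higher with quantile normalization. The median change at 120 h was 0.26 with mean signal, 0.14 with quantile normalization and 0.15 with the GC trend removed, and its excess over other regions 0.28 and 0.30 under the last 2. With 1 library left out the ranges were 0 to 4 lower and 1 to 20 higher at 18 h, 0 to 28 and 3 to 104 at 48 h, 249 to 443 and 655 to 2511 at 120 h, and 0.25 to 0.47 for the median. The difference in summits within 100 bp of the start ran from -1.29 to 1.69 percentage points. The change of Dnmt3b at 120 h turned to -0.11 (limma adjusted p = 0.674) with the GC trend removed, and ran from -0.029 without replicate 2 to 0.404 without replicate 1 at 120 h. The cause of these shifts was not tested. The replicate numbers did not pair the libraries (correlations of deviations from -0.224 to 0.248), and with the replicate block 487 starts were lower and 2624 higher at 120 h.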
